A study of Caenorhabditis elegans with 12 samples.

Results

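Whole-worm RNA of the nematode Caenorhabditis elegans under mitochondrial stress was compared between animals with and without a normal ATFS-1. The comparison holds 6 of the 12 arrays of the series: 3 of atfs-1(tm4525) mutants and 3 of wild type, all grown on bacteria that deliver spg-7 RNAi. The arrays were taken by their genotype and RNAi labels, and every gene that could be tested entered, which was 10385 genes, each read from the brightest of its probe sets that carry 1 gene symbol. The other 6 arrays hold both genotypes on control RNAi and are used as the unstressed reference. All worms had the N2 background, were synchronised by bleaching, were raised in liquid culture and were collected at L4, the last larval stage. The mutant carries a germline allele in every tissue and at every stage, so no value can be assigned to 1 tissue, and the labels name 1 allele only. The 3 arrays of a group are labelled as biological replicates, without saying whether cultures ran in parallel.

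ATFS-1 is a bZIP transcription factor with a mitochondrial targeting sequence. In healthy worms it is imported into mitochondria and degraded there, and when import is impaired it accumulates in the nucleus and switches on the mitochondrial unfolded protein response, a programme of chaperones, proteases, import components and detoxification enzymes. SPG-7 is part of a protease complex in the inner mitochondrial membrane, and its knockdown by RNAi is a standard way to trigger this response. The series' title ascribes such a programme to ATFS-1, and the comparison asks which transcripts differ in stressed worms when the factor is altered.

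Values are deposited signals, the linear brightness of a probe set, and differences are log2 of mutant over wild type with the standard error (SE) of a limma model over all 12 arrays. Calls were made where the p adjusted by Benjamini-Hochberg over all genes tested lay under 0.05. Pearson's r between replicates across probe sets was 0.879 to 0.917 for wild type on spg-7 RNAi and 0.922 to 0.939 for the mutant. The median SD of a gene between replicates was 0.503 log2 units in wild type and 0.318 in the mutant on spg-7 RNAi. A simpler measure, used below for gene groups, counts the genes whose 3 mutant arrays all lay above, or all below, the 3 wild-type arrays. Over all genes 1632 lay above (15.7%) and 757 below (7.29%), with a median log2 difference of 0.00. Under 3 other scalings of the arrays these counts were 1187 to 1443 and 504 to 1622, so counts per list moved too, and their ranges are given beside many of them.

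On spg-7 RNAi 9 genes fell in the mutant relative to wild type, 0.0867% of those tested, and 1 rose, 0.00963%, together 0.0963%. Among the 9 were 2 cytochrome P450 genes, 2 genes of solute carrier family 17, the gap junction gene inx-9 and the nuclear hormone receptor gene nhr-61. The lower genes had fitted values of -1.90 to -4.29 on the log2 scale, and the higher gene, F19H6.6, of 2.58. At an unadjusted p under 0.05 the same limma fit held 1599 genes (15.4%), 1159 of them higher (11.2%) and 440 lower (4.24%). The plot of all genes shows that points of low unadjusted p lay mostly on the higher side while all but 1 of the called genes lay on the lower side.

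**Figure D1:**
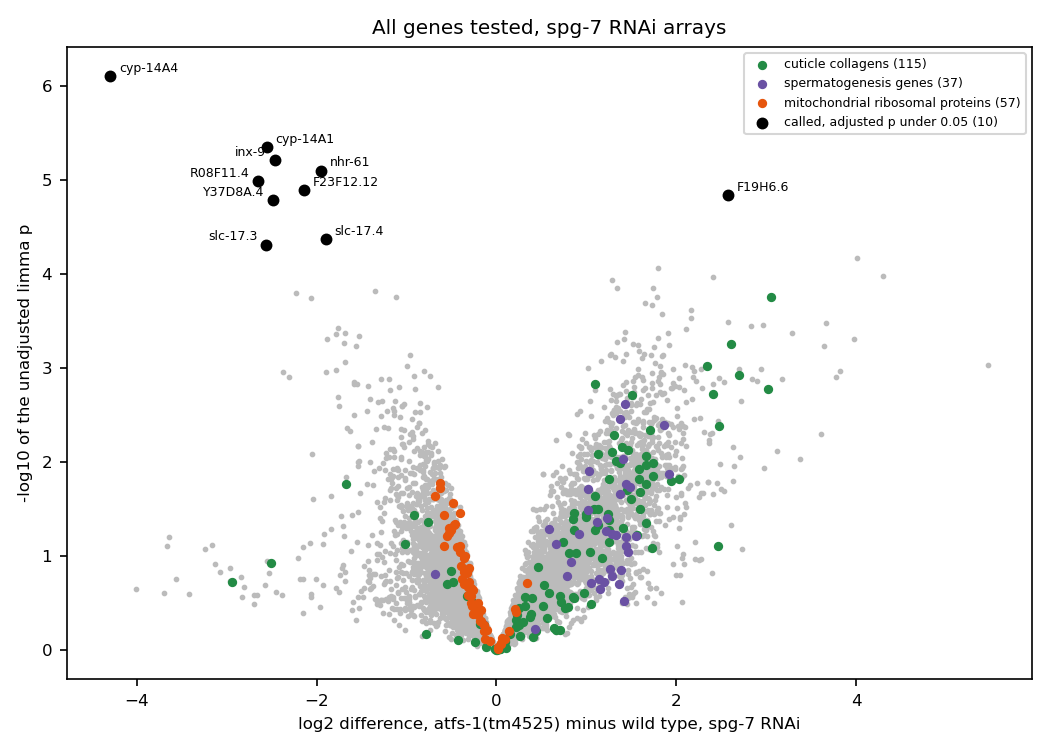
Log2 difference between atfs-1(tm4525) and wild type on spg-7 RNAi (x axis) against -log10 of the unadjusted limma p (y axis), 1 point per gene, n = 3 arrays a group. Black points are the 10 called genes, and coloured points are members of 3 gene lists, none of which was called.

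The P450 enzymes oxidise lipids, hormones and foreign compounds. The signal of cyp-14A4 was 2597, 5901 and 3204 on the 3 wild-type arrays and 149, 276 and 158 on the 3 mutant arrays. Every wild-type array thus stood far above every mutant array, and the fitted difference was -4.29 ± 0.45 (log2, SE; limma adjusted p = 0.00799), a 19.6-fold lower signal. On control RNAi the same gene was at 42.6, 19.2 and 27.9 in wild type and 25.2, 30.5 and 12.99 in the mutant, all under the filter level of 76.0 below which probe sets were treated as dim. The mutant on spg-7 RNAi therefore stood between the unstressed level and the stressed wild-type level. Its relative cyp-14A1 stood at 1946, 2911 and 2175 in wild type and 329, 567 and 325 in the mutant, without overlap (-2.56 ± 0.32, adjusted p = 0.0204), and had mean signals of 104.3 ± 29.6 (SD, n = 3) and 72.1 ± 9.32 (SD, n = 3) on control RNAi. Of 41 cytochrome P450 genes tested these 2 fell, where 0.0867% of all genes did, and none rose. Without wild-type control RNAi replicate 1, 3 fell and 1 rose, where 0.539% and 5.11% of all genes did. All mutant arrays lay below for 6 of the 41 (14.6%, against 7.29% of all genes). They lay above for 5, a smaller share than the 15.7% of all genes. Under the other scalings 5 to 8 lay below and 5 to 6 above. The list median was 0.14 against 0.00 over all genes. The sign of that median was not stable, turning to -0.09 with arrays centred on their medians and to -0.02 without mutant spg-7 RNAi replicate 2. A further 2 members had large negative values that were not called. These were cyp-13A8 (1688, 7093 and 4169 in wild type, 688, 1347 and 748 in the mutant, -2.06 ± 0.65, adjusted p = 0.19) and cyp-34A8 (-1.44 ± 0.38, adjusted p = 0.148).

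R08F11.4, a gene known here by its sequence name, had a signal of 4224, 5493 and 3585 in wild type and 736, 1084 and 418 in the mutant. The groups did not overlap, and the gene fell in the mutant by 2.65 on the log2 scale (SE 0.36, adjusted p = 0.0209). Its control RNAi signals were 98.3, 91.7 and 75.1 in wild type and 65.0, 115 and 72.3 in the mutant, near the filter level in both genotypes. The probe set carries the mark s, so transcripts of other genes may contribute to it.

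Members of solute carrier family 17 are membrane transporters of organic anions. For slc-17.4 the wild-type arrays gave 1672, 2476 and 1357 and the mutant arrays 510.1, 399 and 529.8. The mutant values lay close to those on control RNAi, which were 251, 404 and 354 in wild type and 324, 274 and 444 in the mutant (-1.90 ± 0.30, adjusted p = 0.0485). For slc-17.3 the wild-type arrays spread over 1290.5, 646 and 331, and the mutant arrays gave 125, 91.0 and 118, all lower (-2.56 ± 0.41, adjusted p = 0.04997). This last value lies just inside the threshold.

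The innexin gene inx-9 encodes a gap junction subunit that acts in the sheath of the gonad. It stood at 1018, 1608 and 978 in wild type and 256, 179.9 and 205 in the mutant (-2.47 ± 0.32, adjusted p = 0.0204). The mutant arrays lay below all arrays of both genotypes on control RNAi (271, 574 and 368 in wild type, 397, 398 and 519.6 in the mutant), so the level in the stressed mutant was under the unstressed level. Its neighbour in function inx-8 stood at 769.5, 1000.3 and 2226 and 411, 337 and 499.9, also without overlap, but was not called (-1.54 ± 0.47, adjusted p = 0.183; 0.0449 without wild-type control RNAi replicate 1). Among 8 genes listed for the L4 vulva and gonad (ceh-18, inx-8, inx-9, inx-14, inx-22, lim-7, lin-3 and lin-39) 1 fell, inx-9, and the list median was -0.62.

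The nuclear hormone receptor gene nhr-61 had 1326, 1135 and 761 in wild type and 278, 281 and 253 in the mutant (-1.95 ± 0.26, adjusted p = 0.0204), again without overlap. On control RNAi it was at 142.2, 116 and 129 and 137, 155 and 144. Of 110 nuclear hormone receptors 6 lay below (5.45%, against 7.29% of all genes, and 21 to 25 genes under the other scalings) and 2 above (1.82%, against 15.7%), with a median of -0.06. The gene nhr-61 was the 1 called. Its probe set is of the s type.

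Y37D8A.4 and F23F12.12, both without a role given here, completed the lower genes. Y37D8A.4 stood at 1029, 1100.4 and 1684 in wild type and 246, 195 and 225 in the mutant (-2.49 ± 0.35, adjusted p = 0.0209), and a further probe set of this gene gave -1.82. F23F12.12 stood at 2118, 1439.7 and 1313 and 279, 484 and 345 (-2.14 ± 0.30, adjusted p = 0.0209, measured through a probe set marked x, which can also bind related transcripts). Unlike the other lower genes it also lay below in the mutant on control RNAi, at 551, 649.8 and 639.5 against 1487, 855 and 1453, although that difference was not called (-1.004, adjusted p = 0.434). The higher gene, F19H6.6, stood at 80.3, 109 and 112 in wild type and 467, 743 and 601 in the mutant (2.58 ± 0.36, adjusted p = 0.0209). On control RNAi its mutant arrays (1078, 841 and 805) were likewise all above the wild-type arrays (143.4, 408 and 251), a difference of 1.88 (adjusted p = 0.368).

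**Figure D2:**
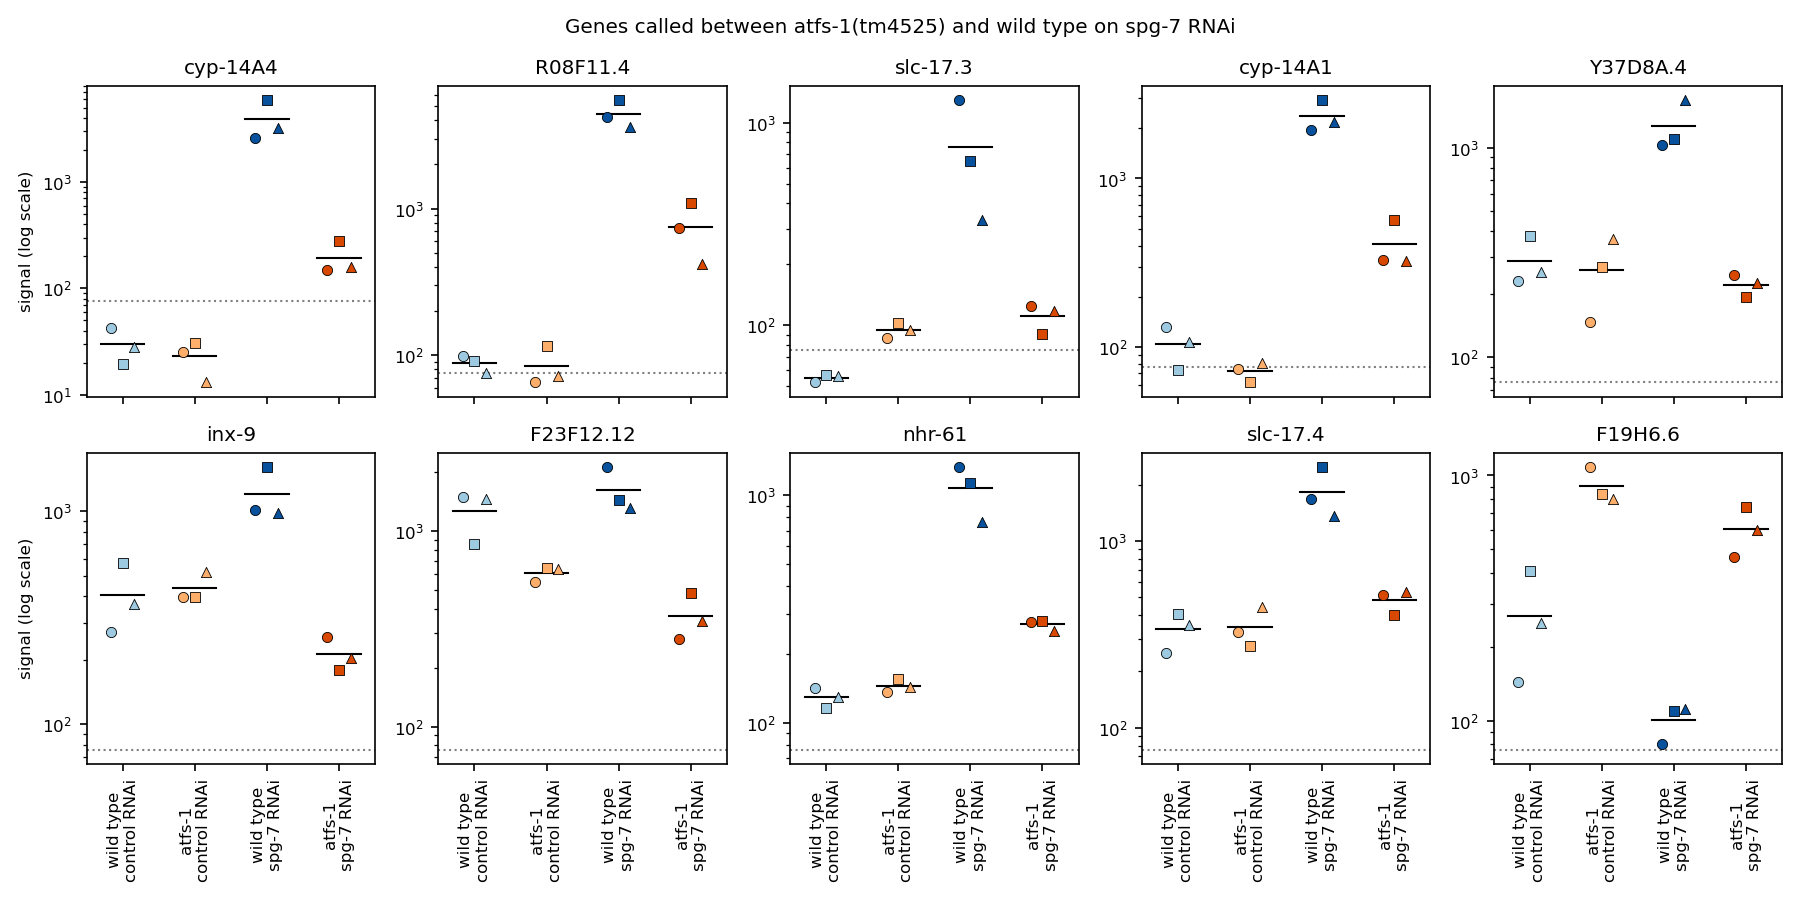
Signal (log axis) of the 10 called genes on each of the 12 arrays, by genotype and RNAi. Circles, squares and triangles are replicates 1, 2 and 3, the black bar is the group mean, and the dotted line is the filter level of 76.0; on spg-7 RNAi the genotypes do not overlap in any panel.

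The number of called genes depended strongly on single arrays. In the 12 fits that each left out 1 array, there were 0 calls with replicate 2 of the wild type or replicate 1 or 3 of the mutant on spg-7 RNAi left out, and 587 (5.65%; 531 higher, 5.11%, and 56 lower, 0.539%) without wild-type control RNAi replicate 1. The other 8 fits held 4 to 18 calls. Wild-type control RNAi replicate 1 is not among the compared arrays and enters only through the shared estimate of the spread: the median SD in its group was 0.435 with it and 0.316 without it. The shared estimate moved less: the median residual SD over all groups was 0.451 with this array and 0.419 without it, and the median SE of the difference on spg-7 RNAi 0.363 and 0.34. The adjusted p and list counts of the fit without this array are given below for the named genes and lists in which it made calls beyond the 10, all of which it kept. That fit was singled out after its count had been seen and has no more standing than the 3 with 0 calls. Of 94 genes checked in each fit, none beyond the 10 was called in more than 2 of the 12. The calls of cyp-14A4 and cyp-14A1 were kept in 9 of the 12 fits, those of R08F11.4 and inx-9 in 8, of nhr-61 and F23F12.12 in 7, of F19H6.6 in 6, of Y37D8A.4 in 5, of slc-17.4 in 3 and of slc-17.3 in 2. Besides the 3 fits without calls, leaving out wild-type spg-7 RNAi replicate 1 kept only cyp-14A4, cyp-14A1 and inx-9 of the 10, and leaving out mutant spg-7 RNAi replicate 2 kept cyp-14A4, cyp-14A1, R08F11.4 and F23F12.12. Without wild-type spg-7 RNAi replicate 3 only Y37D8A.4 was lost. The fits without 1 of the other 5 control RNAi arrays each lost slc-17.3, 4 of them (all but that without mutant control RNAi replicate 3) also lost slc-17.4, and that without mutant control RNAi replicate 2 lost Y37D8A.4, F23F12.12 and F19H6.6 as well. No fit turned the direction of any of the 10.

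The allele and the knockdown were checked at their own probe sets. The atfs-1 signal was 996, 586 and 922 in wild type and 555, 590.3 and 618 in the mutant (-0.47 ± 0.25, adjusted p = 0.395). The groups overlapped, and the mutant kept a signal at this s-type probe set. Where that probe set lies in the gene, and so whether it covers the part altered by the allele, was not examined. The spg-7 signal was 13442, 22348 and 7278 and 26208, 17698 and 9968 (0.36 ± 0.45, adjusted p = 0.708), and on control RNAi it was 747, 454 and 1057 in wild type, with a mutant mean of 383 ± 68.5 (SD, n = 3). It was thus higher in both genotypes on spg-7 RNAi, the opposite of a knockdown, so the depth of knockdown, and whether it was equal in both genotypes, cannot be read from it.

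Mitochondrial chaperones refold proteins inside the organelle, and hsp-6 and hsp-60 are the usual reporters of the response. The signal of hsp-6 was 7175, 5408 and 3792 in wild type and 6168, 4824 and 5578 in the mutant, overlapping throughout (0.06 ± 0.29, adjusted p = 0.934; -0.31 at a further probe set, and of either sign across settings). The signal of hsp-60 was 5459, 3496 and 2377 and 2902, 2417 and 2441 (-0.47 ± 0.26, adjusted p = 0.411; -0.65 at a further probe set), with wild-type replicate 3 the lowest of the 6 arrays. None of 14 mitochondrial chaperone and protease genes was called. The 3 whose arrays all lay below in the mutant included C34C12.8, a GrpE homologue that serves the mitochondrial Hsp70 (3567, 3395 and 2958 against 2123, 1806 and 1755, -0.80 ± 0.19, adjusted p = 0.126, and 0.0364 without wild-type control RNAi replicate 1). They also included D2030.2, a ClpX homologue (2034, 1376 and 1164 against 1033, 964 and 953, -0.59 ± 0.28, adjusted p = 0.346). The highest value of the list, to which spg-7 itself also belongs, was 0.42 ± 0.19 for trap-1, a mitochondrial Hsp90 (adjusted p = 0.324). The list median was -0.23. The 3 members below were 21.4% of the list, against 7.29% of all genes, and 0 lay above, against 15.7%. Under the other scalings 1 to 7 members lay below.

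Proteins made in the cytosol enter mitochondria through translocases of the outer (TOM) and inner (TIM) membrane. Of 21 import genes none was called, 7 lay below in the mutant (33.3%, against 7.29% of all genes) and 0 above, with a median of -0.25. The largest value was that of timm-23, the channel of the inner membrane translocase, at 6942, 4287 and 3018 in wild type and 2263, 2315 and 2028 in the mutant (-1.03 ± 0.27, adjusted p = 0.14). All 3 mutant arrays stood closer to the wild-type control RNAi signals of 1993, 1772 and 1729.8 than to the stressed wild type. The translocase subunit timm-17B.1 (-0.77 ± 0.25, adjusted p = 0.192), the outer membrane receptor tomm-70 (-0.70 ± 0.26, adjusted p = 0.23) and tin-44, which tethers the import motor (-0.67 ± 0.26, adjusted p = 0.243), also did not overlap between genotypes. Under the 3 other scalings 3 to 10 members lay below and 0 above, and the list median kept its sign there and without each of the 6 compared arrays.

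Mitochondria divide through the dynamin drp-1, recruited by outer membrane adaptors. The adaptor gene mff-2 stood at 3770.1, 4260.3 and 3139 in wild type and 1028, 1559 and 810.5 in the mutant, a 3.39-fold lower signal that was not called (-1.76 ± 0.36, adjusted p = 0.115; 0.0229 without wild-type control RNAi replicate 1). The drp-1 signal was 2096, 2149 and 1594 and 1213, 1140.5 and 965 (-0.81 ± 0.25, adjusted p = 0.183). On control RNAi wild type gave 636, 702 and 588 for drp-1 and 472, 832 and 294 for mff-2, so the mean of the stressed mutant lay between the unstressed and the stressed wild type for both genes. The outer membrane GTPase gene miro-1 was also below without overlap (-0.44 ± 0.23, adjusted p = 0.384), whereas fis-1, another fission gene, was above (114, 160.2 and 119.7 against 309.7, 242 and 443, 1.31 ± 0.64, adjusted p = 0.352; 0.0325 without wild-type control RNAi replicate 1). On control RNAi fis-1 was above as well (1.60). Of 9 fission and fusion genes 3 lay below (33.3%, against 7.29% of all genes) and 1 above (11.1%, against 15.7%), with a median of -0.15.

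Autophagy encloses damaged mitochondria for degradation. Of 25 genes of mitophagy and autophagy none was called, and the median was -0.29. In the mutant 8 lay below (32%, against 7.29% of all genes, and 3 to 14 genes under the other scalings) and 0 above. The largest values belonged to epg-4, a gene of autophagosome formation (786, 944 and 1868 against 525, 438 and 613, -1.099 ± 0.38, adjusted p = 0.208), and dct-1, the mitophagy receptor related to BNIP3 (531, 448 and 392 against 171, 293 and 205, -1.06 ± 0.40, adjusted p = 0.233). Both had all mutant arrays below all wild-type arrays. The autophagy gene atg-16.2 was at -0.57 ± 0.29, and atg-9, a membrane protein of the same pathway, at -0.66 ± 0.33 with 1 overlapping array.

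Ubiquinone carries electrons in the respiratory chain. All 7 tested genes of its synthesis had negative values, and the median was -0.46. For 5 of them the arrays did not overlap (71.4%, against 7.29% of all genes below, and 2 to 7 genes under the other scalings). The gene coq-1, which makes the isoprenoid tail, stood at 3642, 3630.5 and 2771 in wild type and 1322, 1491 and 1127 in the mutant (-1.35 ± 0.25, adjusted p = 0.0804; 0.0197 without wild-type control RNAi replicate 1). Its mutant arrays were again closer to the control RNAi arrays than to the stressed wild type, at 755, 1169.5 and 670.3 in wild type and 873, 1088 and 923 in the mutant. Next were coq-8, an atypical kinase of the pathway, coq-2, which joins tail and ring, and coq-3, a methyltransferase, at -0.57 ± 0.19, -0.47 ± 0.25 and -0.46 ± 0.20 with adjusted p of 0.196, 0.399 and 0.3; the arrays of coq-2 overlapped.

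Lactate dehydrogenase, encoded by ldh-1, regenerates NAD+ when respiration is limited. Its signal was 6410.2, 7357 and 5696 in wild type and 2533, 3549 and 2952 in the mutant, a difference of -1.11 ± 0.21 that did not pass (adjusted p = 0.0804) but did without wild-type control RNAi replicate 1 (0.0212). That was the 1 fit of 12 with an array left out in which ldh-1 was called, and across them its limma adjusted p reached 0.4145. The genotypes were well separated, with the highest mutant array at 3549 and the lowest wild-type array at 5696. Other glycolysis genes with large values were pfk-1.2, a phosphofructokinase, above in the mutant (1.80 ± 0.56, adjusted p = 0.188), and hxk-1, a hexokinase, with overlapping arrays (-0.94 ± 0.45). Of 16 glycolysis genes 1 lay above (6.25%, against 15.7% of all genes) and 1 below (6.25%, against 7.29%), and the median was -0.26. Under the other scalings 3 to 6 lay below.

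By contrast the enzymes that oxidise fuel were close to 0. None of 30 genes of the tricarboxylic acid cycle and glyoxylate shunt had groups apart in either direction, and their values ran from -0.47 to 0.39 with a median of 0.04. The 43 nuclear-encoded subunits and assembly factors of the respiratory chain and ATP synthase had a median of 0.02. Of these 1 lay above (2.33%, against 15.7% of all genes) and 2 below (4.65%, against 7.29%). The 1 above was cyc-2.2, a cytochrome c gene, at 372, 754 and 695 in wild type and 2122, 1649 and 1602 in the mutant (1.62 ± 0.49, adjusted p = 0.183; 0.0165 without wild-type control RNAi replicate 1), and it was also above on control RNAi (1.31). The signs of both medians changed under other scalings or with 1 array left out, and under the other scalings 0 to 6 and 0 to 7 members of the lists lay below.

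Mitochondrial ribosomes translate the proteins encoded by mitochondrial DNA. Of 57 genes for their proteins 18 lay below in the mutant (31.6%, against 7.29% of all genes) and 1 above (1.75%, against 15.7%). Their median was -0.30 and their range -0.69 to 0.34, and 4 to 25 lay below under the other scalings. None was called; the lowest were mrpl-51 (-0.69 ± 0.26, adjusted p = 0.241), mrps-14 (-0.63 ± 0.23), mrpl-40 (-0.63 ± 0.23) and mrps-6 (-0.59 ± 0.25). The median log2 signal of the list was 10.29, 9.80 and 10.23 on the wild-type arrays and 9.85, 9.83 and 9.87 on the mutant arrays. Wild-type replicate 2 thus lay just under the mutant arrays while the other 2 stood above them. On control RNAi the median difference was -0.26, with 12 of 57 genes below and 0 above, where 5.79% and 11.8% of all genes lay. The list thus differed in the same direction in unstressed worms. Its median log2 signals there were 10.15, 10.25 and 10.08 in wild type and 9.825, 9.933 and 10.03 in the mutant, without overlap. The 73 cytosolic ribosomal protein genes had 0 below (3 to 14 under the other scalings) and 1 above on spg-7 RNAi, with a median of -0.01.

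**Figure D3:**
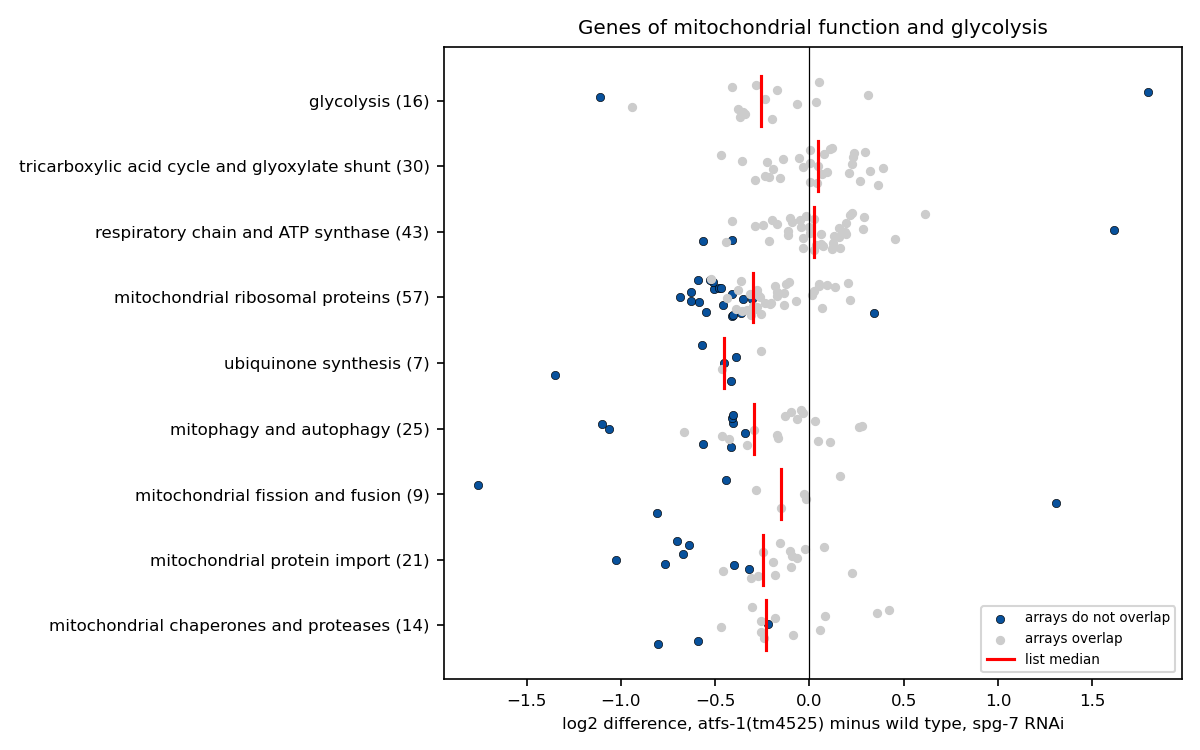
Log2 difference between mutant and wild type on spg-7 RNAi (x axis) for the genes of 9 lists of mitochondrial function and glycolysis, 1 point per gene. Dark points are genes whose 3 mutant and 3 wild-type arrays do not overlap, and red bars are list medians, which lie from -0.46 for ubiquinone synthesis to 0.04 for the tricarboxylic acid cycle.

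No transcript of a regulator of the response was called. Of 15 such genes, atfs-1 among them, 3 lay below (20%, against 7.29% of all genes) and 2 above (13.3%, against 15.7%). Under the other scalings 1 to 5 lay below and 0 to 2 above. The homeodomain gene dve-1 stood at 519, 355 and 209.8 in wild type and 723, 569 and 729 in the mutant (0.98 ± 0.43, adjusted p = 0.306), with every mutant array above every wild-type array. The bZIP gene zip-3, a negative regulator of the response, was at -0.57 ± 0.27 and the heat shock factor gene hsf-1 at -0.56 ± 0.31, both with all mutant arrays below and neither called (adjusted p 0.331 and 0.401).

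Detoxification and defence genes other than the cyp-14A pair were not called. Glucuronosyltransferases attach glucuronic acid to lipophilic compounds for export. Of 45 tested 11 lay below (24.4%, against 7.29% of all genes) and 7 above (15.6%, against 15.7%). Under the other scalings 15 to 19 lay below and 4 to 5 above. Without wild-type control RNAi replicate 1, 1 fell and 1 rose, where 0.539% and 5.11% of all genes did. The median of the 45 genes was -0.31. Among them ugt-9 was at 354, 237 and 149 in wild type and 71.9, 109 and 64.6 in the mutant (-1.54 ± 0.51) and ugt-41 at -1.39 ± 0.42, with adjusted p of 0.196 and 0.183. The opposite direction was seen for ugt-43, at 71.2, 183 and 142.7 and 549, 612 and 817 (2.40 ± 0.69, adjusted p = 0.168; 0.0128 without wild-type control RNAi replicate 1), which was also above on control RNAi (2.50). Of 26 glutathione S-transferase genes 3 lay above (11.5%, against 15.7% of all genes) and 2 below (7.69%, against 7.29%). The gene gst-4, a reporter of the oxidative stress factor SKN-1, stood at 2041, 3071 and 2015 and 1130.4, 881 and 896 (-1.27 ± 0.33, adjusted p = 0.139), and gst-10 was at 1.197 ± 0.45.

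Among 20 genes of oxidative stress defence 3 lay below (15%, against 7.29% of all genes, and 4 to 8 genes under the other scalings) and 1 above (5%, against 15.7%). The mitochondrial superoxide dismutase gene sod-3 stood at 977, 692 and 260.4 in wild type and 101, 200.3 and 168.4 in the mutant (-1.90 ± 0.44, adjusted p = 0.126; 0.0333 without wild-type control RNAi replicate 1), and it was also below without overlap on control RNAi (-0.72). The metallothionein gene mtl-1 was at 2919, 853 and 523 and 396, 384 and 301 (-1.61 ± 0.68, adjusted p = 0.29), with wild-type replicate 1 far above the other wild-type arrays. The thioredoxin gene trx-3 was above (1.78 ± 0.93, adjusted p = 0.384).

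Of 40 innate immunity genes 6 lay above (15%, against 15.7% of all genes) and 4 below (10%, against 7.29%, and 4 to 8 genes under the other scalings). Without wild-type control RNAi replicate 1, 2 rose and 1 fell, where 5.11% and 0.539% of all genes did. The antimicrobial peptide gene abf-2 stood at 568, 2356 and 1409 in wild type and 167.7, 328 and 283 in the mutant (-2.31 ± 0.55, adjusted p = 0.126; 0.0298 without wild-type control RNAi replicate 1). In the other direction the saposin-like genes spp-7 (137, 138 and 82.9 against 287, 538 and 426, 1.80 ± 0.53) and spp-31 (1.56 ± 0.62) were above, with adjusted p of 0.171 and 0.258. The lysozyme gene ilys-3 was at -1.60 with overlapping arrays and an SE of almost the same size. On control RNAi 35 of 78 C-type lectins lay above (median 0.61), where 11.8% of all genes did. On spg-7 RNAi 11 lay above (14.1%, against 15.7% of all genes) and 3 below (3.85%, against 7.29%; 4 to 7 genes under the other scalings), with a median of 0.01 and with clec-79 at 1.87 ± 0.52 (adjusted p = 0.16; 0.0187 without wild-type control RNAi replicate 1, where 6 members rose and 1 fell).

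Genes of the cuticle and of moulting lay mostly on the higher side, as a shift of many genes with no single call. The epidermis secretes a new collagen cuticle at each larval moult, and hedgehog-related proteins, their Patched-related membrane partners and astacin proteases take part in moulting. Of 115 cuticle collagens 48 had all mutant arrays above (41.7%, against 15.7% of all genes) and 2 below, with a median of 0.81, but none was called in the 12-array fit. Without wild-type control RNAi replicate 1, 11 of the 115 rose and 0 fell, where 5.11% and 0.539% of all genes did. The median log2 signal of the collagens was 10.47, 10.82 and 9.78 on the wild-type arrays and 11.73, 11.20 and 11.42 on the mutant arrays. Every mutant array thus lay above every wild-type array, and wild-type replicate 3 was the lowest.

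The collagen with the highest value was col-89, at 65.3, 105 and 61.8 in wild type and 589.7, 745 and 546 in the mutant (3.05 ± 0.56, adjusted p = 0.0804; 0.0161 without wild-type control RNAi replicate 1). Next were col-33 (48.7, 54.9 and 9.96 against 238.3, 350.1 and 172, 3.02 ± 0.74, adjusted p = 0.126; 0.0384 in that fit) and col-132 (38.3, 82.2 and 103 against 441, 717 and 279, 2.70 ± 0.63, adjusted p = 0.126; 0.0224). The mean wild-type signals of these last 2 lay under the filter level, and the wild-type signals of col-89 lay near it, so these sizes are uncertain. The collagen col-143, at 249, 7458 and 7446 and 494, 23.6 and 2637, had a large negative value that its SE does not resolve (-2.94 ± 2.11).

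Of 30 hedgehog-related genes 16 lay above (53.3%) and 2 below, with a median of 0.85. The warthog gene wrt-4 stood at 276, 332 and 68.3 in wild type and 2803, 1664 and 1264 in the mutant (3.29 ± 0.68, adjusted p = 0.115; 0.0228 without wild-type control RNAi replicate 1). On control RNAi it was at 2762, 2129 and 3436 and 3509, 3257 and 686, so the stressed wild type lay below all unstressed arrays, and the stressed mutant overlapped with them. Its relative wrt-6 was at 435, 452 and 214 and 1712, 1782 and 950.4 (2.03 ± 0.48, adjusted p = 0.126; 0.0314 in that fit), and the groundhog-like gene grd-2 at 2.41 ± 0.91, from a wild-type mean under the filter level. Of 20 Patched-related genes 7 lay above (35.0%; 5 to 12 genes under the other scalings) and 0 below, with a median of 0.93; ptr-18, ptr-16 and ptr-4 were at 1.69 ± 0.65, 1.34 ± 0.56 and 1.47 ± 0.72. Of 34 astacin protease and moulting genes 13 lay above (38.2%) and 1 below, with a median of 0.84; nas-27, nas-29 and nas-8 were at 1.66 ± 0.87, 1.66 ± 0.51 and 1.46 ± 0.52. No gene of these 3 lists was called. Without wild-type control RNAi replicate 1, 3 of 30, 0 of 20 and 0 of 34 rose, where 5.11% of all genes did.

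In unstressed worms the medians of these epidermal lists had the opposite sign. On control RNAi they were -0.22 for collagens, -0.52 for hedgehog-related, -0.36 for Patched-related and -0.39 for astacin genes, and the members with all mutant arrays above numbered 2, 1, 1 and 3 and those with all below 0, 0, 0 and 2, against 11.8% and 5.79% of all genes. Few members were thus separated in either direction in unstressed worms. The median log2 signals per array on control RNAi also overlapped between genotypes in each of these lists. For hedgehog-related genes they were 11.01, 8.75 and 10.07 in wild type and 9.18, 9.40 and 8.42 in the mutant. The control RNAi medians were not examined under other scalings or with single arrays left out. The change of the genotype difference between the RNAi treatments was itself tested for every gene and held 0 calls at an adjusted p under 0.05 (647 genes at an unadjusted p under 0.05, 6.23%, with 4.1% of all genes higher and 2.13% lower), so no single gene was shown to differ. For wrt-4 this change was 3.75 (adjusted p = 0.573) and for col-89 2.36 (0.714). The list of glutamine- and asparagine-rich abu and pqn genes, some of which are cuticle components of the pharynx, had a median of 0.16 on spg-7 RNAi. Of its 50 genes 13 lay above (26%, against 15.7% of all genes) and 2 below (4%, against 7.29%). The highest values were those of abu-4 (2.29 ± 0.56, adjusted p = 0.126, and 0.0278 without wild-type control RNAi replicate 1), abu-2 (2.07 ± 0.72) and pqn-26 (1.90 ± 0.57). The mean wild-type signal of abu-2 on spg-7 RNAi, 33.5, lay under the filter level, so its size is uncertain.

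**Figure D4:**
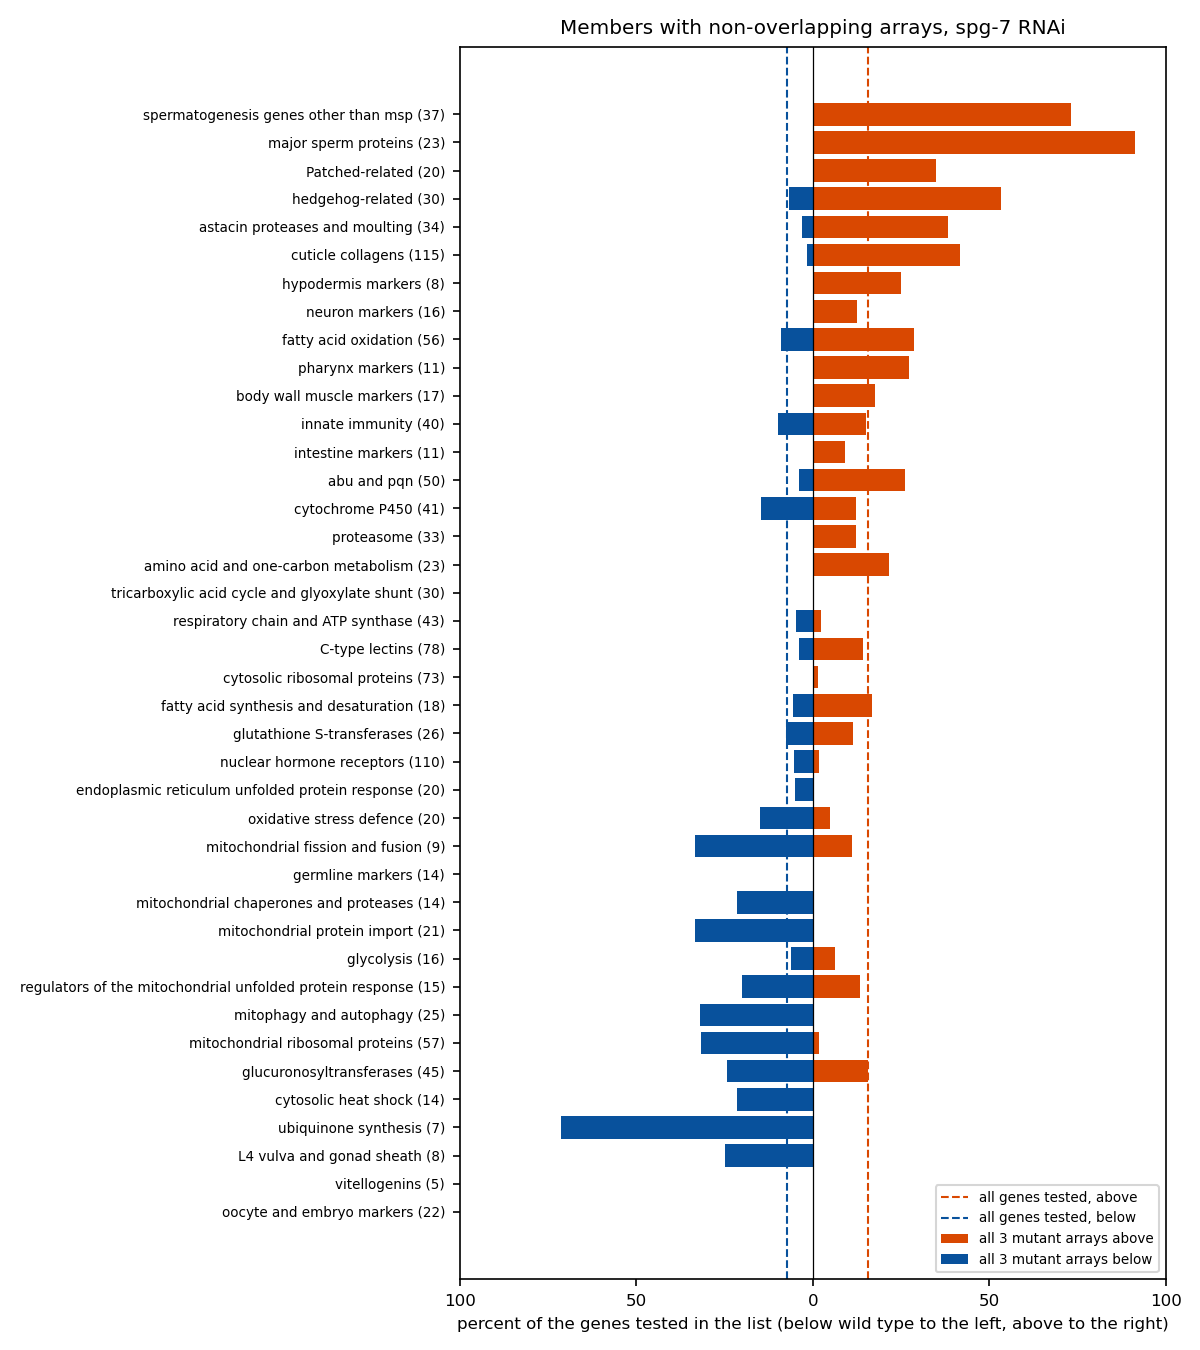
Share of each gene list (genes tested in brackets) whose 3 mutant arrays lie all above (right) or all below (left) the 3 wild-type arrays on spg-7 RNAi, ordered by the list median. Dashed lines mark the shares over all genes, 15.7% above and 7.29% below, and sperm, hedgehog-related and collagen lists reach furthest to the right and ubiquinone synthesis furthest to the left.

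Genes of fat metabolism spanned both directions, with ech-1.1 and the stearoyl-CoA desaturase gene fat-7 at the high end of their lists. Of 56 genes of fatty acid oxidation 16 lay above (28.6%, against 15.7% of all genes) and 5 below (8.93%, against 7.29%), with a median of 0.44, none called. Without wild-type control RNAi replicate 1, 6 of the 56 rose and 0 fell, where 5.11% and 0.539% of all genes did. Among the highest were ech-1.1, a subunit of the mitochondrial trifunctional enzyme (127, 76.7 and 36.6 against 363, 343 and 254, 2.16 ± 0.42, adjusted p = 0.0964; 0.0205 in that fit), and cpt-5, a carnitine acyltransferase (2.01 ± 0.53, 0.146 and 0.0447). The acyl-CoA synthetase gene acs-2, named after its values were seen, was the lowest, at 2457, 1409 and 1185 and 446, 579 and 625 (-1.56 ± 0.78, adjusted p = 0.367). Of 18 genes of fatty acid synthesis and desaturation 3 lay above (16.7%) and 1 below (5.56%), near the shares of all genes. The fat-7 signal stood at 180.2, 453 and 248 in wild type and 1411, 892 and 1279 in the mutant (2.10 ± 0.43, adjusted p = 0.115; 0.0224 without wild-type control RNAi replicate 1), and the elongase genes elo-7 and elo-4 at 1.51 ± 0.36 and 1.16 ± 0.39 (adjusted p = 0.126 and 0.199; 0.0209 and 0.0883 in that fit).

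Cytosolic heat shock genes protect proteins outside mitochondria. Of 14 tested 3 lay below (21.4%, against 7.29% of all genes, and 1 to 4 genes under the other scalings) and 0 above. Their median was -0.34 and none was called. The inducible chaperone gene hsp-70 stood at 3134, 949 and 2498 in wild type and 365, 348 and 845 in the mutant (-2.04 ± 0.79, adjusted p = 0.248) and the small heat shock gene hsp-17 at -1.02 ± 0.36 (adjusted p = 0.209). Another small heat shock gene, hsp-16.2, varied widely among wild-type arrays (4289, 348 and 2034), and the mutant arrays lay inside that range (758, 616 and 825). The 20 genes of the endoplasmic reticulum unfolded protein response had a median of -0.08 with 1 below (5%, against 7.29% of all genes) and 0 above. Of 23 genes of amino acid and one-carbon metabolism 5 lay above (21.7%, against 15.7% of all genes) and 0 below (1 to 5 below under the other scalings). With replicate 1 of the wild type on control RNAi left out 3 rose, where 5.11% of all genes did. The cystathionine beta-synthase gene cbs-2 had a wild-type mean of 23.9 ± 20.01 (SD, n = 3), under the filter level. Its mutant signals were 143.1, 105 and 173, without overlap (2.83 ± 0.57, limma adjusted p = 0.115, and 0.0198 in that fit). The S-adenosylmethionine synthetase gene sams-5 and the glutamine synthetase gene gln-2 were at 1.76 ± 0.40 and 1.64 ± 0.63 (limma adjusted p = 0.126 and 0.24, and 0.0162 and 0.0325 in that fit). The 33 proteasome genes had 4 above (0 to 4 under the other scalings) and 0 below. Of the 40 list medians in the plot of lists 25 kept their sign under 3 other scalings and without each compared array. The 15 that did not were those of the tricarboxylic acid cycle, respiratory chain, cytosolic ribosome, proteasome, cytochrome P450, glutathione S-transferase, innate immunity, C-type lectin, abu and pqn, fatty acid synthesis, endoplasmic reticulum, nuclear hormone receptor, amino acid, germline and intestine lists.

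Markers of sperm had positive medians on both RNAi treatments. Major sperm proteins form the cytoskeleton of the crawling sperm, and hermaphrodites make sperm during L4. Of 23 major sperm protein genes 21 lay above in the mutant (91.3%, against 15.7% of all genes) and 0 below, with a median of 1.01. Under the other scalings 3 to 17 lay above, the lowest count being that with arrays scaled to the hybridisation controls. Of 37 other spermatogenesis genes, a list added after values had been seen, 27 lay above (73.0%; 18 to 25 genes under the other scalings) and 0 below, with a median of 1.27. None was called in the 12-array fit. Without wild-type control RNAi replicate 1, 22 of these 60 genes (6 and 16 of the lists) were among the 531 that rose, 5.11% of all genes. The median log2 signal of the major sperm proteins was 12.98, 13.66 and 13.45 on the wild-type arrays and 14.27, 14.28 and 14.48 on the mutant arrays, without overlap. Examples were msp-142 (1457, 6821 and 4777 against 10038, 9052 and 15181, 1.62 ± 0.78, limma adjusted p = 0.349) and msp-74 (1.47 ± 0.71, limma adjusted p = 0.352, and 0.0186 without wild-type control RNAi replicate 1). The probe sets of both are of the x type and can bind other members of the family, so counts of members need not be counts of independent readings. On control RNAi the medians were 1.03 and 1.38, with 1 of 23 and 28 of 37 above, where 11.8% of all genes lay above. The major sperm protein medians were 11.52, 14.26 and 14.41 on the wild-type control RNAi arrays, replicate 1 being far below the other 2. In whole worms fewer cells of a type and less RNA per cell cannot be told apart.

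Markers of other stages varied widely between arrays of 1 group. Oocyte and embryo markers had medians of 8.21, 11.07 and 12.38 on the wild-type arrays and 9.29, 8.37 and 11.08 on the mutant arrays, overlapping over a range of several log2 units. Yolk proteins, which adult hermaphrodites make, had medians of 11.89, 14.61 and 14.47 against 13.01, 10.95 and 13.79 in worms labelled L4. None of the 22 oocyte, 5 yolk and 14 germline marker genes had groups apart. Body wall muscle markers had 3 of 17 above (17.6%, against 15.7% of all genes, and 1 to 5 genes under the other scalings) and 0 below (median 0.32), among them unc-22, which encodes twitchin (809, 814 and 504 against 1357, 1367 and 1329, 0.96 ± 0.33, adjusted p = 0.2, and 0.0492 without wild-type control RNAi replicate 1), and the myosin gene myo-3 (0.75 ± 0.28). Neuron, hypodermis, pharynx and intestine markers had medians of 0.52, 0.79, 0.33 and 0.18. Above lay 2 of 16 (12.5%), 2 of 8 (25%), 3 of 11 (27.3%) and 1 of 11 (9.09%), against 15.7% of all genes, and none lay below. Under the other scalings 0 to 6 neuron and 1 to 3 intestine markers lay above. Without wild-type control RNAi replicate 1, 1 of the 8 hypodermis markers, elt-1, rose (limma adjusted p = 0.043), where 5.11% of all genes did. The part of these marker differences in the epidermal, fat and sperm gene results was not tested gene by gene; with the sperm protein level of each array as a covariate 5 genes were higher and 12 lower, and with the oocyte marker level 570 and 119, both fits chosen after seeing the data. Of 2 measures of RNA quality 1 separated the genotypes: for the actin control the probe set at the 3' end exceeded that at the 5' end by 0.84 ± 0.01 log2 units (SD, n = 3) in wild type and 0.61 ± 0.07 in the mutant, without overlap (exact two-sided permutation p = 0.1, the smallest that 3 against 3 allows; 0.6 adjusted over 12 measures). For the GAPDH control the same difference was -0.17 ± 0.08 and -0.11 ± 0.02, overlapping (exact permutation p = 0.4).

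**Figure D5:**
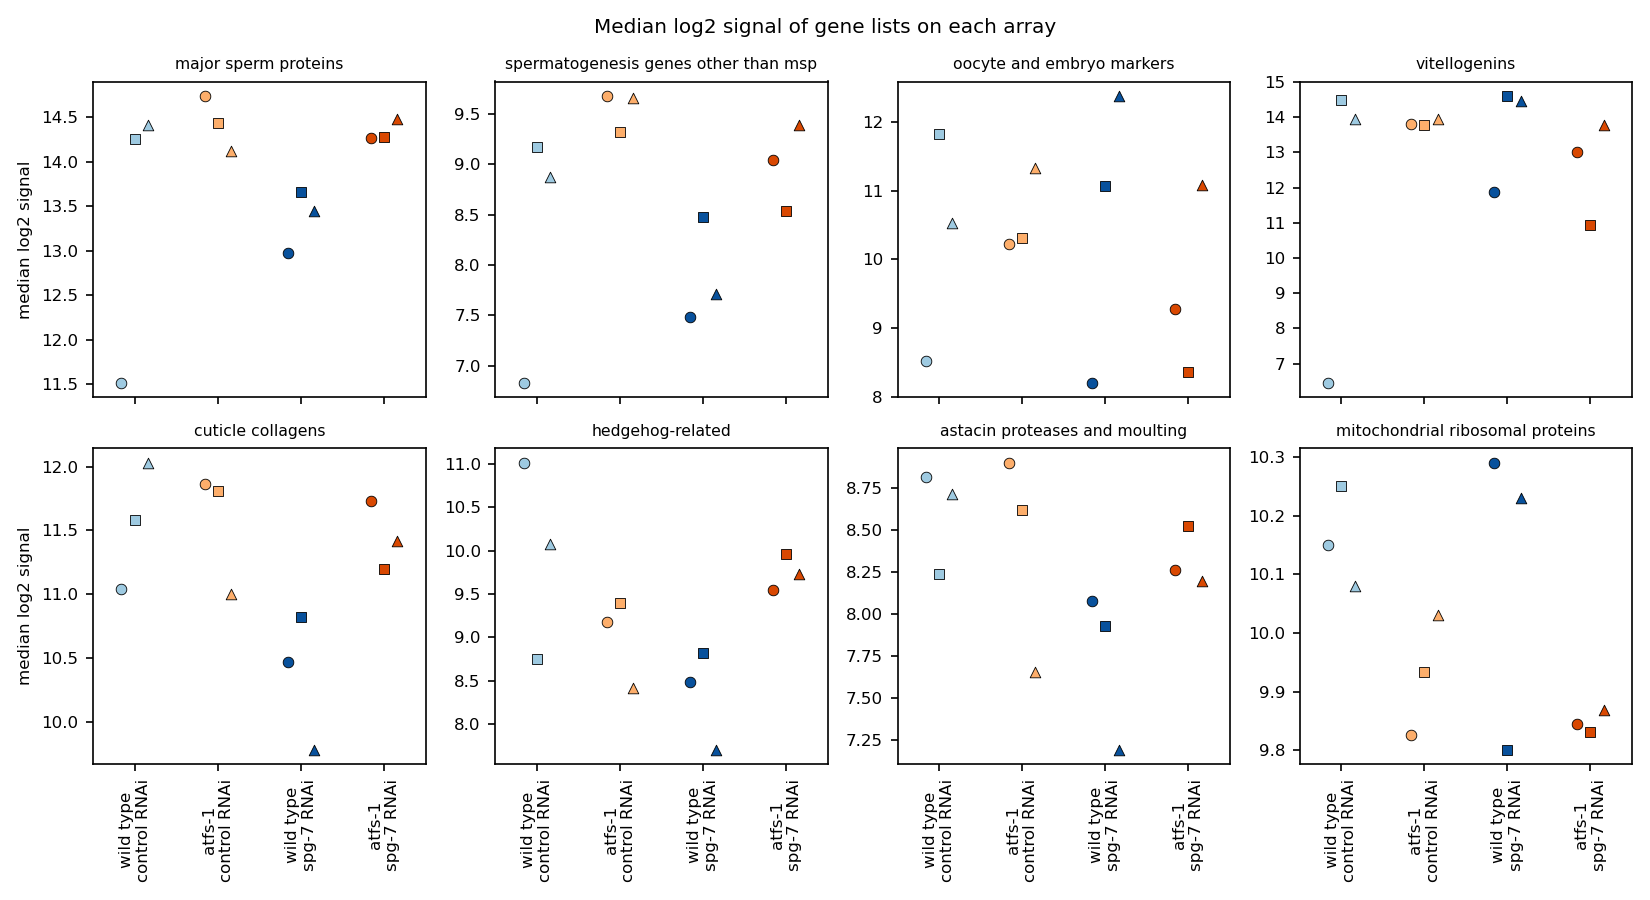
Median log2 signal of 8 gene lists on each of the 12 arrays, by genotype and RNAi; circles, squares and triangles are replicates 1, 2 and 3. On spg-7 RNAi the genotypes do not overlap for major sperm, spermatogenesis, collagen, hedgehog-related and astacin lists, and overlap for oocyte, yolk and mitochondrial ribosomal lists.

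The genotype difference on spg-7 RNAi was set beside that on control RNAi, which uses the other 6 arrays and shares none. On control RNAi 0 genes were called by limma, with 1113 at an unadjusted p under 0.05 (8.47% higher and 2.24% lower). All mutant arrays lay above for 1228 genes (11.8%) and below for 601 (5.79%). Across the 10385 genes the 2 differences had a Pearson's r of 0.34, given as a description since genes are not independent, and 57.9% had the same sign. Of the 1632 genes above on spg-7 RNAi 648 were also above on control RNAi (39.7% of the first set and 52.8% of the second), and of the 757 below 89 were also below (11.8% and 14.8%). The genes fis-1, cyc-2.2, ugt-43 and F19H6.6 were among the 648, with values on control RNAi of 1.60, 1.31, 2.50 and 1.88 for the 4 single genes. Of the 9 genes that fell on spg-7 RNAi 8 had values between -0.50 and 0.78 on control RNAi, and F23F12.12 had -1.004. The change of the difference between treatments was not called for any of the 10; for cyp-14A4 it was -3.89 (adjusted p = 0.209) and for inx-9 -2.64 (0.209).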

How the data were processed

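RNA of 12 whole-worm samples was measured on Affymetrix C. elegans arrays. The deposited intensity of each probe set is a linear MAS5 signal, per the submitters' processing notes; the settings are not given in the sources used here, and the trimmed mean near 500 shared by all arrays was read from the values. Signals under 1 were set to 1 and log2 was taken. The lowest 40% of probe sets by mean over all arrays (under 76.0) were left out, and each gene kept its brightest probe set with 1 gene name. One mean per group was fitted over all 12 arrays with limma 3.58.1 (R 4.3.3, trended variance), with Benjamini-Hochberg adjustment per comparison, and the code was tested on simulated data. The number of arrays limits the precision. Named genes are the called ones, up to 4 members per list with the largest absolute log2 difference, and always hsp-6, hsp-60, atfs-1 and spg-7; acs-2 was added after its values were seen. The gene lists and the choice of what is described were made with earlier results of these data known.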

Additional observations from a re-analysis of the deposited data

Results flagged for a closer look

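Of the 94 genes checked as candidates for description, the arrays of the genotypes lay apart in opposite directions on the 2 RNAi treatments in 2. Over all 10385 genes this was so for 41 (0.395%), of which 26 were below in the mutant on spg-7 RNAi. The 94 were picked largely for big differences on spg-7 RNAi, so their share cannot be compared with that of all genes. Genes apart on both treatments, in the same or opposite directions, numbered 778. For ldh-1, the lactate dehydrogenase gene, the 3 mutant arrays were below the 3 wild-type arrays on spg-7 RNAi and above them on control RNAi (2286, 1745 and 2401 in wild type against 2427, 2949.6 and 2636). The change of the log2 difference was -1.44. For slc-17.3, a solute carrier gene, the control RNAi arrays gave 52.3, 56.8 and 56.2 in wild type, under the filter level, against 86.3, 103 and 94.7 for the mutant, and the change was -3.34. The limma test of the change itself passed for neither gene (adjusted p = 0.448 and 0.209).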

How the results depend on the processing

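The counts of genes higher and lower in the mutant on spg-7 RNAi, 1 and 9, rest on 3 arrays a group and moved with the settings. They were 0 and 4 with signals scaled to the hybridisation controls (3 of the 10 calls kept), 3 and 10 with 32 added before the logarithm (where 1 gene was lower in the change between treatments), 5 and 13 with no filter, 2 and 7 without s and x probe sets (7 kept), 8 and 4 with the 6 compared arrays alone (5 kept), and 0 and 1 at an adjusted p under 0.01. With array weights they were 463 and 247, in a fit of the weights that stopped with a convergence warning, and on control RNAi 353 and 166, and for the change 25 and 71. Weights estimated gene by gene, added after those counts were seen, gave 756 and 478, 0 and 0, and 7 and 29. Covariates, also added afterwards, gave 5 and 12 (sperm protein level) and 570 and 119 (oocyte marker level). Leaving out 1 array gave 0 to 531 higher and 0 to 56 lower (the highest of both without wild-type control RNAi replicate 1), and 0 to 1 lower in the change (the 1 with replicate 3 of the wild type on spg-7 RNAi left out). The causes were not tested.

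Same-numbered arrays were not paired by the labels, and their deviations on spg-7 RNAi correlated at 0.224, -0.09 and 0.663 between genotypes. With the replicate block 1 gene was higher and 6 lower, and 7 of the 10 calls were kept.

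The sign of hsp-6 turned to -0.17 (array medians), -0.036 (hybridisation controls), -0.31 (probe set of median rank), -0.025 (without replicate 1 of the mutant on spg-7 RNAi) and -0.092 (oocyte covariate). With 1 array left out its value ran from -0.18 (replicate 3 of the wild type on spg-7 RNAi) to 0.28. The sign of hsp-16.2 turned to 0.11 and 0.51 with the 2 kinds of array weights, and the value of spg-7 ran from -0.057 to 0.75 with 1 array left out, negative only when the same wild-type array was missing. No called gene turned. With arrays centred on their medians the median over all genes was -0.22, and 1187 genes lay above and 1622 below, so direction counts of lists shift with the scaling. Scaled to the hybridisation controls, 3 of 23 major sperm protein genes lay above and 4 of 57 mitochondrial ribosomal genes below.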
